A study of Mus musculus with 2 samples.

Results

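The genes described here encode the nuclear-coded subunits of respiratory complexes II, III, IV and V and cytochrome c. They were taken by symbol: every probe with a single annotated symbol that is Sdha, Sdhb, Sdhc, Sdhd, Cyc1 or Cycs, or that starts with Uqcr, Cox4i, Cox5, Cox6, Cox7, Cox8 or Atp5. This gave 46 genes on 52 probes, of 18069 genes on 21615 probes with 1 symbol. By complex there were 4 genes of complex II, 9 of complex III, 1 of cytochrome c, 16 of complex IV and 16 of complex V. The rule used no measured value. Total RNA of the embryo proper was hybridised to 1-colour oligonucleotide arrays of the CodeLink system. The mDom-/- sample was a pool of 45 embryos homozygous for a mutation of mDom, and the wild-type sample was a pool of 42 litter-matched embryos, all at E8.5 (embryonic day 8.5). mDom is the submitters' name for Ep400, which encodes the ATPase of the TIP60/p400 chromatin-remodelling complex. Neither the kind of mutation nor the strain is given by the labels. Each pool had 1 array, so no value below has a replicate error and no difference was tested.

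These complexes sit in the inner mitochondrial membrane. Complex II oxidises succinate and passes electrons to ubiquinone, complex III moves them to cytochrome c, complex IV gives them to oxygen, and complex V uses the proton gradient built by complexes III and IV (and complex I) to make ATP. Complexes III, IV and V also hold subunits made inside the mitochondrion from its own DNA, whereas complex II is wholly nuclear-coded. Many promoters of these genes are known to carry sites for NRF1 and for GABPA (NRF2), a factor of the ETS family.

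Promoter letters were read from RefSeq windows of GRCm38.p6 that run from 250 bases before to 50 bases after an annotated start. A window was found for 35 of the 46 genes, 38 windows in all. The NRF1 letters (GCGCA, any base, then GCGC) were in 10 of the 38 windows (26.3%), against 4.60% of all 32851 windows. The ETS letters CCGGAAG were in 13 (34.2%), against 8.86%, and the YY1 letters AAGATGGC in 2 (5.26%), against 2.75%. Both strands were searched, and the NRF1 and ETS letters do not overlap in the stretches shown. A match is a description of letters and not of a bound site. The 100 bases before the start are shown for Atp5d, Uqcrh and Atp5k, which read higher on the mDom-/- array, for Sdhd, whose arrays were nearly level, and for Sdha, which read lower. Capitals mark the NRF1 and ETS letters on either strand, and each stretch is written 5′ to 3′ on the strand of its gene.
Atp5d (chr10:80142175-80142274, plus strand, the first of its 2 listed windows): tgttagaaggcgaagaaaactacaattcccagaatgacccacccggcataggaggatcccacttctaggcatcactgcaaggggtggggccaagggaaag
Uqcrh (chr4:116075071-116075170, minus strand): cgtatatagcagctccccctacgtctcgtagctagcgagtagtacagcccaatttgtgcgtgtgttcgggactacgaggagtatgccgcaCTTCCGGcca
Atp5k (chr5:108434400-108434499, minus strand): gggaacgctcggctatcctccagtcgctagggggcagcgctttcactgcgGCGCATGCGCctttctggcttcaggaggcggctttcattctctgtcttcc
Sdhd (chr9:50603850-50603949, minus strand): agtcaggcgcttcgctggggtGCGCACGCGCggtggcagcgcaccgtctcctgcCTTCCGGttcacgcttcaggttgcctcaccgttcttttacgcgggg
Sdha (chr13:74350241-74350340, minus strand): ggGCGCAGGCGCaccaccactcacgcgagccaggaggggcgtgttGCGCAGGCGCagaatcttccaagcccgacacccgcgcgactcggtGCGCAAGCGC
Sdha held 3 copies of the NRF1 letters in this stretch, Atp5k 1, and Sdhd 1 beside 1 copy of the ETS letters, while the stretch of Atp5d held neither.

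Signals are given in units of the median of their array. Probes had to exceed a floor of 0.541 on 1 array or both to be compared, which about 60% of probes did on either array, and each gene was read from its brightest probe. The mDom-/- column reached 1714 and the wild-type column 1374 before division by medians of 1.05 on both. Ep400 itself could not check the labels, since its probes read -0.029 and 0.071 on the mDom-/- array and 0.215 and 0.470 on the wild-type array, all below the floor. Among 14 compared heart muscle markers 13 had a log2 ratio below 0, while 49.5% of all compared genes were above 0. The summed signals of these markers were 679.5 in the mDom-/- pool and 790.3 in the wild-type pool. Pln passed the floor in wild-type alone, and Myh6, Actn2 and Ryr2 were below the floor on both arrays. Among 6 red cell markers 5 were below 0, with sums of 40.9 in the mDom-/- pool and 350.8 in the wild-type pool. Hbb-y (5.12 in the mDom-/- pool and 133.8 in wild-type) and Hba-x (22.4 and 199.9) made up most of both sums. Alas2 was lower too (log2 ratio -1.15), while Rhag was nearly level at -0.01 and Epb42 was at 0.45. Slc4a1 passed the floor in wild-type alone. Of 9 visceral endoderm and yolk sac markers 4 were above 0, with a median log2 ratio of -0.13. Their sums were 868 in the mDom-/- pool and 677 in the wild-type pool. That gap came mainly from Apoc2 (242.4 in the mDom-/- pool and 128.0 in wild-type) and Ttr (251.2 and 166.6). At least 1.5-fold apart were Ttr, Apoa4 and Apoc2, which were higher, and Cubn and Lrp2, which were lower. Amn was below the floor on both arrays.

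Of the 46 genes, 43 passed the floor, all of them on both arrays. Uqcrq (0.072 in the mDom-/- pool and 0.122 in wild-type), Cox8b (0.131 on both arrays) and Cox7b2 (-0.212 in the mDom-/- pool and -0.109 in wild-type) were below it and give no ratio. None of the 43 compared members was 2-fold apart in either direction, nor 1.5-fold apart. Among all 13136 compared genes 0.845% were 2-fold or more higher in the mDom-/- pool and 0.929% were 2-fold or more lower, and with a 1.5-fold rule these shares were 4.08% and 4.35%. In the brightest 1 of 20 equally filled bins of mean signal, where 31 of the 43 compared members lay, 0.152% were 2-fold higher and 0.152% 2-fold lower, and 1.07% and 0.152% by the 1.5-fold rule. So few genes of that brightness were 2-fold apart that the absence of such members matches the background. All 43 ratios lay between -0.29 (Uqcr10) and 0.56 (Atp5d) on the log2 scale, where a ratio is mDom-/- minus wild-type.

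**Figure D1:**
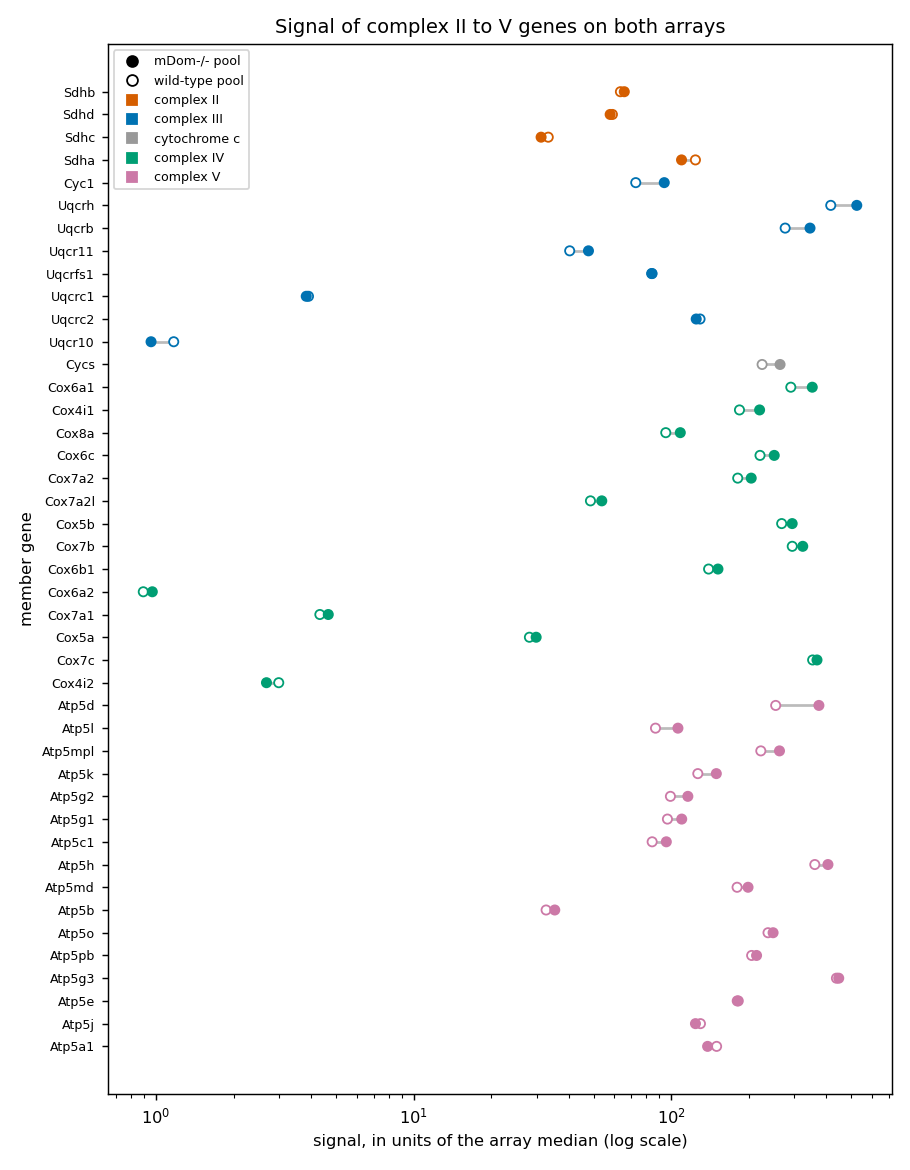
Signal of each compared gene of complexes II to V and cytochrome c on both arrays, in units of the array median on a log axis, with the mDom-/- pool as filled and the wild-type pool as open circles, 1 array per pool. The circles of most genes nearly touch, and the widest gap is that of Atp5d (375 in the mDom-/- pool and 255 in wild-type).

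Within that narrow range most members read slightly higher in the mDom-/- pool. The log2 ratio was above 0 for 34 of 43 members, against 49.5% of all compared genes and 72.7% of the genes of the brightest bin, with a median of 0.14 over the members and -0.00358 over all compared genes. Higher readings in the mDom-/- pool were common to bright genes: the median was 0.10 in the brightest bin, 0.02 in the next and 0.01 in the one after. After the median of its own brightness bin was taken off each gene, the median of the members was 0.07, and 29 of 43 lay above the median of their bin, against 49.9% of all compared genes and 50% of the brightest bin. With 40 bins in place of 20 the value was 0.03 and with 100 bins 0.07. Quantile normalization brought the median log2 ratio to 0.05 with 27 of 43 above 0 and 16 of 43 not, and loess on brightness brought it to 0.02 with 23 of 43 above 0. Within the brightest bin the 31 members had a median of 0.17, with 27 above 0, against 0.10 and 450 of 625 for the other genes of the bin and 0.08 for those that do not encode cytosolic ribosomal proteins.

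The yardstick within the arrays is pairs of probes for the same gene. Across 1301 genes with exactly 2 such probes above the floor, their disagreement gave a log2 ratio an SD of 0.25, and over the 107 pairs with both probes in the brightest 25% it was 0.14. It covers error particular to a probe. Differences shared by all probes of an array and the spread between pools of embryos are not in it. By more than 0.25, 7 members lay above 0, against 17.3% of all compared genes and 18.9% of the brightest bin, and 1 lay below, against 19.2% and 2.74%. The 7 were Atp5d, Cyc1, Uqcrh, Uqcrb, Atp5l, Cox6a1 and Cox4i1, and the 1 below was Uqcr10. All 7 were among the 31 members in the brightest bin, a share not far from the 18.9% of that bin. Of the 43 members 13 were at or above the 75th percentile of their brightness bin and 4 at or below the 25th. By definition 25% of all genes lie on each of these sides. At or above the 90th percentile were 4 members and at or below the 10th was 1, where 10% of all genes lie on each side. In a pool of whole embryos fewer cells of a type and less RNA per cell cannot be told apart.

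**Figure D2:**
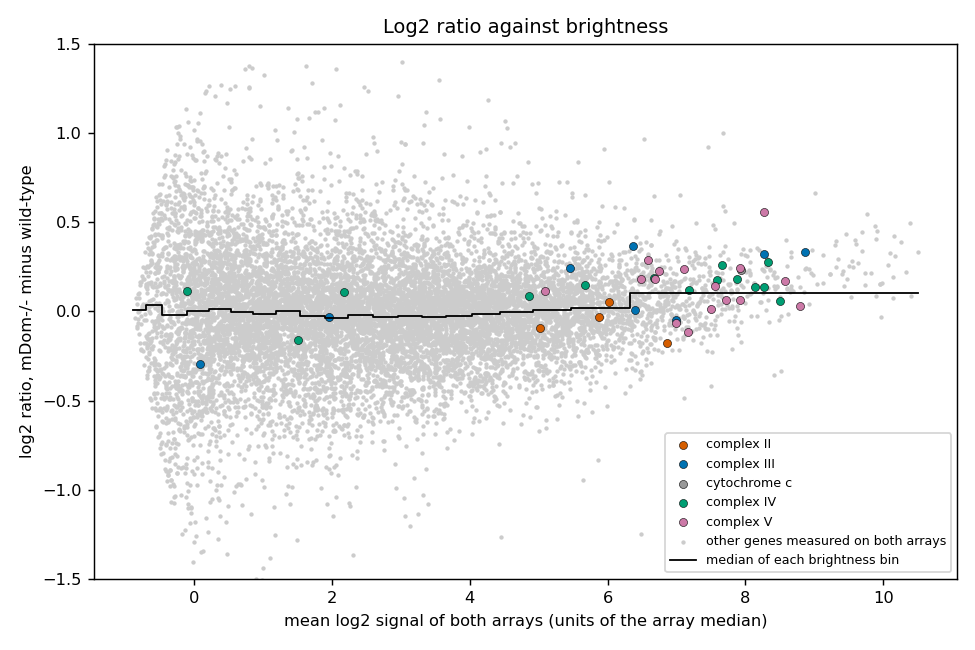
Log2 ratio (mDom-/- minus wild-type) of each gene against its mean log2 signal, with members coloured by complex, other genes measured on both arrays in grey, and the black line at the median of each of 20 brightness bins. Most members lie at the bright end, where the line steps up to 0.10, and genes beyond 1.5 on the vertical axis are not drawn.

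Of the complexes, II had the lowest median, with 1 of its 4 genes above 0. Sdhb, the iron-sulfur subunit, had 65.7 in the mDom-/- pool and 63.5 in the wild-type pool, a log2 ratio of 0.05 that fell to -0.02 at its lowest under other settings. Sdhd and Sdhc, the membrane anchors that bind ubiquinone, had 57.9 and 31.25 in the mDom-/- pool, against 59.1 and 33.3 in wild-type, with log2 ratios of -0.03 and -0.09. Sdha, the flavoprotein that oxidises succinate, had 109.7 in the mDom-/- pool and 124 in the wild-type pool. Its log2 ratio of -0.18 lay at percentile 5.64 of the genes of its brightness bin, the lowest place of any member, and it stayed between -0.29 and -0.16 under every setting tried. The median over the 4 genes was -0.06, or -0.07 relative to genes of like brightness, and both values stayed below 0 under all scalings and floors. The log2 ratios of the 4 genes are smaller in size than the SD of 0.25 between probes of a gene. That of Sdha is larger than the 0.14 of bright probe pairs, and its value relative to genes of like brightness, -0.28, is larger in size than both.

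Complex III held 4 genes that read higher, 3 that were nearly level and 1 dim gene that read lower. Cyc1, which encodes cytochrome c1, the subunit that hands electrons to cytochrome c, had 94.0 in the mDom-/- pool and 72.8 in the wild-type pool, a log2 ratio of 0.37 (1.29-fold). Uqcrh, the hinge protein gene, had 525 in the mDom-/- pool and 416 in wild-type, a log2 ratio of 0.34, and its second probe had 216 and 185, a log2 ratio of 0.23, so both of its probes were on the same side. Uqcrb, a small subunit gene, had 346 in the mDom-/- pool and 277 in wild-type (log2 ratio 0.32). These 3 genes lay between percentiles 90.5 and 93.8 of the brightest bin. Uqcr11, another small subunit gene, had 47.7 in the mDom-/- pool and 40.4 in wild-type (log2 ratio 0.24).

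The other genes of complex III with bright probes showed no such difference. Uqcrfs1, the Rieske iron-sulfur protein gene, had 84.3 in the mDom-/- pool and 84.0 in wild-type (log2 ratio 0.01), and Uqcrc2, a large core protein gene, had 125.1 and 129 (log2 ratio -0.05). Uqcrc1, the other core protein gene, was read from a much less bright probe, with 3.83 in the mDom-/- pool and 3.91 in wild-type (log2 ratio -0.03). Uqcr10, a small subunit gene, had the lowest ratio of all members, -0.29, but from a dim probe with 0.956 in the mDom-/- pool and 1.17 in wild-type, at percentile 25.3 of genes as dim, and its second probe was below the floor. The median over 8 compared genes was 0.12, with 5 above 0. It was 0.24 with the 60th percentile floor, where Uqcr10 was not compared, and 0.01 with no floor, where the dim Uqcrq came in at a log2 ratio of -0.77 (1.70-fold apart). The core genes Cyc1, Uqcrfs1, Uqcrc1 and Uqcrc2 had a median of -0.01, and the 4 compared small subunit genes one of 0.28, a grouping made after the values were seen and not tested.

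Cycs, which encodes the mobile carrier cytochrome c, had 265 in the mDom-/- pool and 225 in the wild-type pool, a log2 ratio of 0.23 at percentile 78.0 of its bin. Its second probe was below the floor on both arrays.

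**Figure D3:**
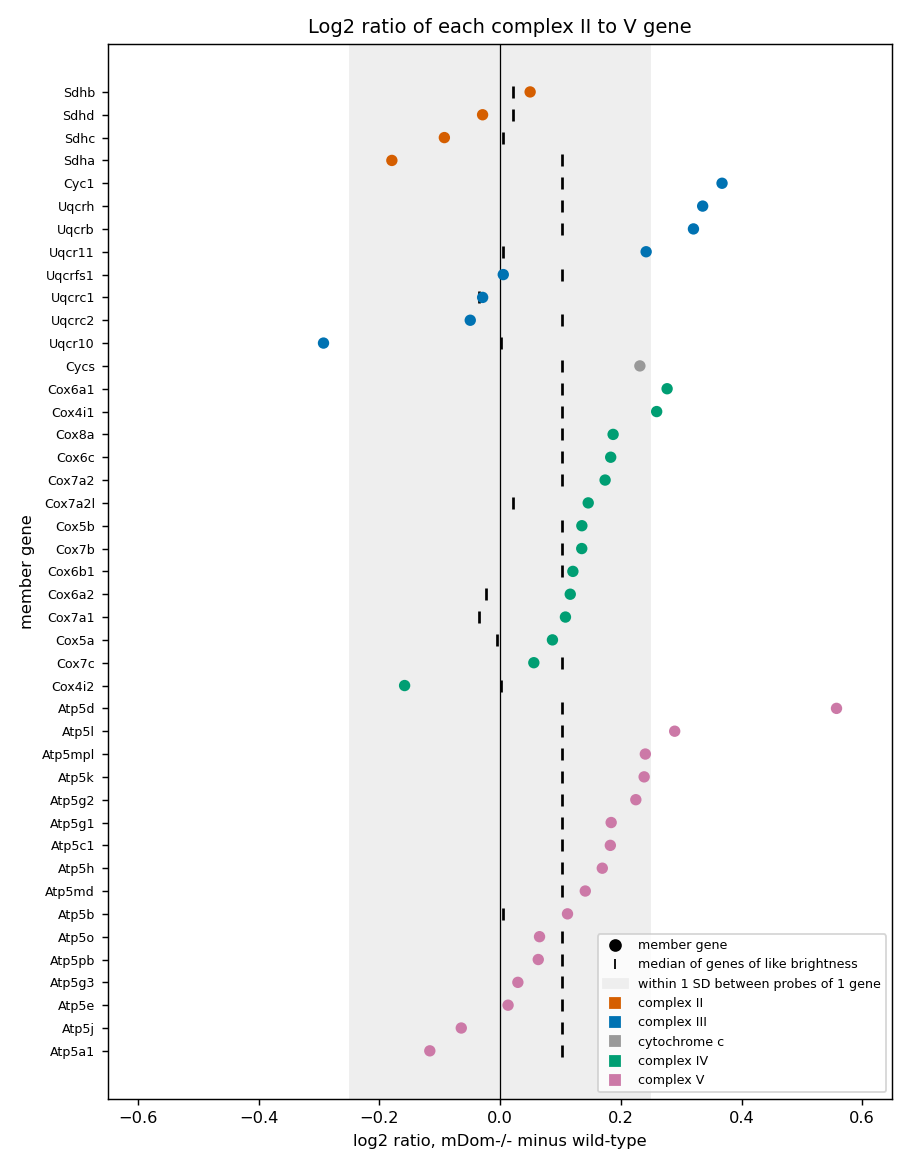
Log2 ratio (mDom-/- minus wild-type) of each compared gene, grouped by complex and ordered within it, with a tick at the median of genes of like brightness and a grey band of 1 SD (0.25) between probes of the same gene, 1 array per pool. Genes of complex II lie near or below 0, those of complex IV mostly between 0.06 and 0.28, and Atp5d at 0.56 stands furthest from its tick.

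Complex IV genes differed little among themselves. All 11 compared genes other than the tissue isoforms had a log2 ratio above 0, from 0.06 to 0.28, but 9 of 11 with quantile normalization and 7 of 11 with loess. In the brightest bin 72.7% of all genes were above 0, and 10 of these 11 lay above the median of their own bin. The highest was Cox6a1, the widely expressed form of subunit VIa, with 353 in the mDom-/- pool and 291 in wild-type (log2 ratio 0.28). Cox4i1, the common form of subunit IV, had 220.4 in the mDom-/- pool and 184 in wild-type (log2 ratio 0.26). Both stayed above 0 under every setting, and their lowest values were 0.09 for Cox6a1 and 0.11 for Cox4i1. Cox8a, Cox6c and Cox7a2 had log2 ratios of 0.19, 0.18 and 0.17, and Cox7a2l, whose product is known for joining complexes III and IV into supercomplexes, had 0.15. Cox5b, Cox7b, Cox6b1 and Cox7c had 0.14, 0.14, 0.12 and 0.06, and each of these 4 turned below 0 under at least 1 setting. Cox5a had 29.9 in the mDom-/- pool and 28.2 in wild-type (log2 ratio 0.09). The median over the 14 compared genes of complex IV was 0.14, or 0.08 relative to genes of like brightness.

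Several subunits of complex IV come in forms that differ between tissues. Cox7a1, the form of heart and skeletal muscle, had 4.66 in the mDom-/- pool and 4.32 in wild-type (log2 ratio 0.11), beside a log2 ratio of 0.17 for its common counterpart Cox7a2. Cox6a2, the muscle form of subunit VIa, had 0.967 in the mDom-/- pool and 0.892 in wild-type (log2 ratio 0.12), from a dim probe, and the third muscle form, Cox8b, was below the floor on both arrays. The log2 ratios of both compared muscle forms were smaller than the SD of 0.25 between probes of a gene. Neither form read lower, as most heart muscle markers did, but both rest on 1 array per pool and Cox6a2 on a dim probe. Whether the muscle forms followed those markers was not tested. Of 14 compared heart muscle markers 13 had a log2 ratio below 0, 5 of them at least 2-fold lower, with a median of -0.62. Among all compared genes 49.5% were above 0 and 0.929% were at least 2-fold lower. The markers were not uniform: Myl7, the brightest, had a log2 ratio of 0.08 and Tnnt2 one of -0.06. The part of heart muscle in these values was not tested. Cox4i2, the form known from lung and induced by low oxygen, had 2.68 in the mDom-/- pool and 2.99 in wild-type (log2 ratio -0.16), the only compared gene of complex IV below 0. Cox7b2, a testis form, was below the floor on both arrays.

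Complex V held the highest member. Atp5d, which encodes the delta subunit of the central stalk of the F1 part, had 375 in the mDom-/- pool and 255 in the wild-type pool, a log2 ratio of 0.56 (1.47-fold) at percentile 98.6 of the genes of its bin. It has 1 probe, and its ratio stayed between 0.37 and 0.58 under the settings tried. Its neighbours in the same part of the enzyme did not share that value. Atp5c1, the gamma subunit gene, had 95.7 in the mDom-/- pool and 84.3 in wild-type (log2 ratio 0.18), and Atp5e, the epsilon subunit gene, had 182 and 180.5 (log2 ratio 0.01). Atp5b, the catalytic beta subunit gene, had 35.3 in the mDom-/- pool and 32.7 in wild-type (log2 ratio 0.11). Atp5a1, the alpha subunit gene, had 138 in the mDom-/- pool and 150.1 in wild-type, the lowest ratio of complex V at -0.12 and at percentile 10.1 of its bin.

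The genes of the membrane part and of the peripheral stalk lay in narrower ranges. Atp5l, Atp5mpl, Atp5k and Atp5md encode small membrane subunits, and their log2 ratios were 0.29, 0.24, 0.24 and 0.14, all above the median of their bin (Atp5md turned to -0.01 at its lowest under other settings). Of these, Atp5l had 106 in the mDom-/- pool and 86.9 in wild-type. Atp5g1, Atp5g2 and Atp5g3 encode the same mature protein of the c ring, and had log2 ratios of 0.18, 0.22 and 0.03. Atp5g1 was measured by a bright probe with 109.8 in the mDom-/- pool and 96.7 in wild-type and a dim one with 4.54 and 4.04, and their log2 ratios of 0.18 and 0.17 were nearly equal. Atp5h, Atp5o, Atp5pb and Atp5j of the peripheral stalk had 0.17, 0.07, 0.06 and -0.06, and 1 of these 4 lay above the median of its bin. The median over the 16 genes of complex V was 0.16, with 14 above 0, but 0.03 with quantile normalization (9 of 16 above 0) and 0.03 with loess (8 of 16). Relative to genes of like brightness it was 0.07, with 10 of 16 above the median of their bin. In the brightest bin 72.7% of all genes were above 0. Many genes of these complexes have processed pseudogenes or close paralogues, and no label says whether the probes tell them apart.

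Members with and without the promoter letters had median ratios of the same sign. Over the compared members with a promoter window, the median log2 ratio was 0.12 for the 10 with NRF1 letters, 0.17 for the 13 with ETS letters, 0.20 for the 4 with both and 0.12 for the 14 with neither. Relative to genes of like brightness these medians were 0.04, 0.07, 0.10 and 0.08. Sdha, with 3 copies of the NRF1 letters in the stretch printed above, had the lowest ratio among bright members. Atp5d, with neither set of letters, had the highest. Both were named for their extreme ratios, and a link between letters and ratio was not tested. Genomic length showed a weak inverse relation to the ratio, with Spearman's rho of -0.31 across the 43 members. In the 2 brightest bins it was -0.34 across 34 members and -0.27 across all 1313 genes. Brightness had a positive relation to the ratio, with Spearman's rho of 0.38 across the 43 members. Within the 2 brightest bins that rho was 0.22 across the 34 members and 0.25 across the 1313 genes. These are descriptions across genes that share the same pair of arrays.

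Genes that build or run the same machinery were listed by name, 41 assembly and regulation genes among them. After Atp5md, listed there as Usmg5, was set aside as a member, 30 had a probe with 1 symbol and 28 were compared. Their median log2 ratio was 0.02, with 18 of 28 above 0, against 49.5% of all compared genes. None was 1.5-fold apart, while 4.08% of all compared genes were 1.5-fold higher and 4.35% lower. A list of 28 is too short to tell that absence from the background. The following genes were chosen after their values were seen. Cox20, an assembly factor of complex IV, had 45.7 in the mDom-/- pool and 31.8 in wild-type (log2 ratio 0.52), and Bcs1l, which inserts the Rieske protein into complex III, had 10.05 and 7.46 (log2 ratio 0.43). Sco1, a copper carrier for complex IV, had 2.51 in the mDom-/- pool and 3.62 in wild-type (log2 ratio -0.53), and Lrpprc, which stabilises mitochondrial messenger RNA, had 4.48 and 6.10 (log2 ratio -0.45).

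Regulators of mitochondrial gene expression went both ways. Of 16 compared genes 11 had a log2 ratio above 0 and 5 below, against 49.5% of all compared genes above 0. The median was 0.02 and the range -0.45 to 0.52. Ppargc1b had 3.20 in the mDom-/- pool and 2.23 in wild-type, and Esrra had 3.84 and 2.69. Both had a log2 ratio of 0.52, the top of that range, and Ppargc1a was not compared. Nrf1 had 1.52 in the mDom-/- pool and 1.22 in wild-type (log2 ratio 0.32), and Gabpa, a subunit of the ETS-family factor, had 2.65 and 2.85 (log2 ratio -0.10). Tfam, which packages mitochondrial DNA, had a log2 ratio of 0.29, whereas Tfb2m, a factor that starts its transcription, had -0.45 and Ssbp1, which binds its single strands, had -0.30. The 7 carriers and outer membrane channels had a median of 0.02, and of -0.08 relative to genes of like brightness with 2 of 7 above the median of their bin, with Slc25a4, an ADP/ATP carrier gene, at 0.23 and Vdac2 at -0.20. The genes named in this paragraph were also chosen after their values were seen. None of the 9 listed genes of the mitochondrial DNA was matched to a probe with 1 symbol, so the subunits made inside the mitochondrion are not analysed here.

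Complex I and both groups of ribosomal protein genes showed medians of the same sign, unlike the carriers and channels relative to genes of like brightness. The 30 compared complex I subunit genes had a median log2 ratio of 0.16, with 26 above 0, and 0.07 relative to genes of like brightness. The 55 cytosolic ribosomal protein genes had 0.25, with 52 above 0, and 0.15 relative to genes of like brightness. The 72 mitochondrial ribosomal protein genes had 0.07, with 47 above 0, and 0.06 relative to genes of like brightness. These counts stand beside 72.7% above 0 in the brightest bin, bin 20, and 54.5% in bin 19. The median bin was 19.5 for the complex I genes, 20 for the cytosolic and 19 for the mitochondrial ribosomal protein genes. Above the median of their bin were 24 of 30, 46 of 55 and 47 of 72 genes, in the same order. With 1 array per pool no difference between these families and complexes II to V was tested. Complex II, at -0.06, was the only complex of the 4 described here with a median below 0, and that contrast rests on 4 genes and was not tested either.

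**Figure D4:**
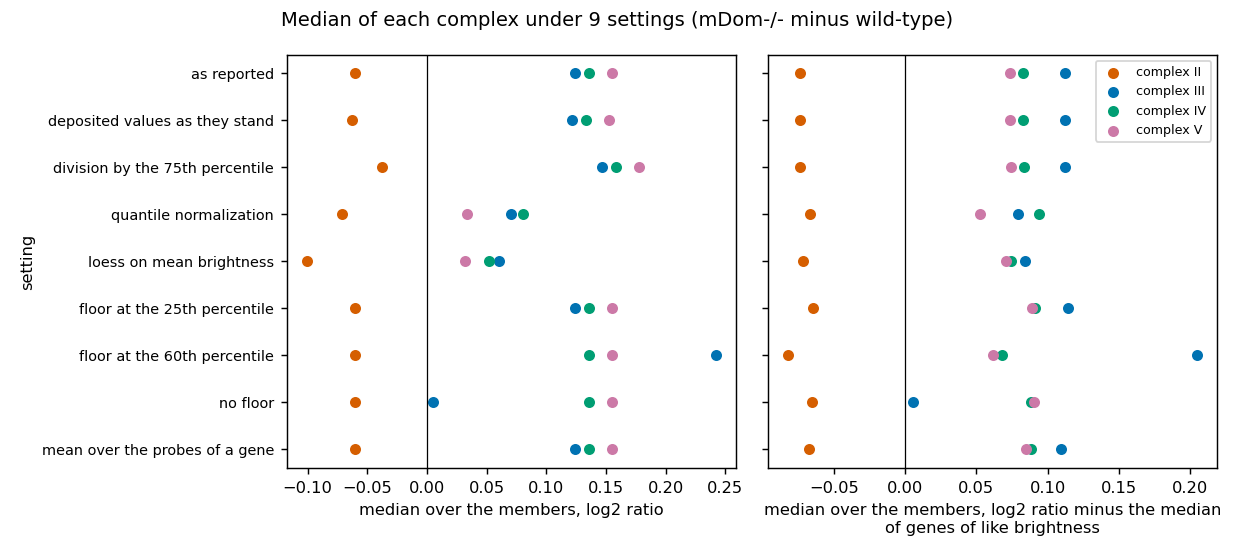
Median over the genes of each complex of the log2 ratio (left, mDom-/- minus wild-type) and of the log2 ratio minus the median of genes of like brightness (right), under 9 settings of scaling, floor and probe choice. Complex II lies below 0 under each of them, and on the left complex V drops to 0.03 with quantile normalization and with loess.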

How the data were processed

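Per the labels, the authors analysed the array images with CodeLink System Software; the deposited values were treated as linear intensities, on which every log2 ratio depends. Scale, background correction, scaling and detection flags are not stated by the labels. The table held 2718 negative values for mDom-/- and 2656 for wild-type, its array medians were 1.0485 and 1.0503, and the code -9999 was taken as no value (106 mDom-/- and 105 wild-type probes). Groups came from the sample titles.

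Of 36227 probes, 21615 had 1 symbol, 681 several and 13931 none listed. Probes with several symbols were not used, which left out 2 with a symbol of these complexes. All 46 members matched RefSeq by Entrez identifier. Each array was divided by its median, raised to a floor at the higher of the 40th percentiles and put on the log2 scale, giving 13136 compared genes, 11926 of them above the floor on both arrays. These genes were cut into 20 equally filled bins of mean brightness. The 2-fold rule was checked on simulated data with planted changes larger than that of any compared member. The brightness adjustment and small shifts were not checked in that way. Members and lists were chosen with earlier results of these data known. Every member was given, with more detail for the 4 highest and 4 lowest ratios, tissue isoforms and any gene at least 1.5-fold apart. Alternatives changed the scaling, the floor (25th or 60th percentile, or none), the probe choice, the size rule, the bins and the members. Python 3.11.15, pandas 2.3.3 and statsmodels 0.14.6 were used.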

Additional observations from a re-analysis of the deposited data

How the results depend on the processing

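With 1 array per pool the number of arrays limits the precision, and dim probes limit it further. No paired analysis was possible because each group has 1 sample. No member was 2-fold apart under any scaling, floor or probe rule. By the 1.5-fold rule, run under these settings after seeing the data, 1 member was apart, Uqcrq with no floor (log2 ratio -0.77), and none under the others. The count of all genes 2-fold apart, 233, was 1055 with the floor at the 25th percentile, 66 at the 60th, 2329 with none, and 136 of 11928 over genes measured on both arrays, as all 43 members were. The median log2 ratio of all members, 0.14, was 0.0171 with loess, and that of complex V, 0.16, was 0.0332 with quantile normalization and 0.0320 with loess, which remove the higher level of bright genes by construction. The median of complex III, 0.12, was 0.24 with the 60th percentile floor and 0.00537 with no floor; its value relative to genes of like brightness was 0.00555 with no floor. These settings compared 7 and 9 of its genes in place of 8. No median of the 4 complexes turned its sign. Relative to genes of like brightness the median of all members stayed between 0.03 and 0.09, also without cytosolic ribosomal protein genes in the bins (0.08) and with 100 bins (0.07), both chosen after seeing the data. Leaving out Atp5d, likewise chosen later, gave a median log2 ratio of 0.13, and leaving out the tissue isoforms 0.14. Of 43 member genes 30 kept their sign under every setting and 13 did not.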
